A study of Mus musculus with 18 samples.

Results

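Eomes, Mixl1, Gsc, Foxa2, Sox17, Mesp1, Evx1 and Cer1 were followed across 5 histone marks in E14 mouse embryonic stem cells. These 8 genes were taken by name as regulators of mesendoderm, the common source of mesoderm and definitive endoderm in the gastrulating embryo, out of 21627 protein-coding genes on the autosomes and chromosome X. All 8 were found in the RefSeq gene table of GRCm38. Each was described in 3 regions, namely the windows within 1 kb of the transcription start, the gene body from start to end, and 20 kb on either side of the gene.

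The cells, a pluripotent male line kept undifferentiated in 2i/LIF (inhibitors of MEK and GSK3 plus the cytokine LIF), were profiled by chromatin immunoprecipitation and sequencing. The 18 libraries fell into 9 groups of 2 replicates. Untreated cells gave 10 libraries, 2 for each methylation state of H3K27 (me1, me2 and me3) and 2 each for H3K36me2 and H3K36me3, with no chromatin of another species added. A further 8 quantitative libraries, for H3K27me3 and H3K36me2, came from cells kept for 7 days in 10 µM EPZ-6438, which inhibits the methyltransferase EZH2, or in an equal volume of the solvent DMSO, with Drosophila S2 chromatin added at 0.05%. The labels do not say whether replicates were separate cultures, so every p-value measures the spread between these libraries only. The growth medium listed in the labels also held light, medium or heavy arginine and lysine, and which of these a given library had is not stated.

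Mesendoderm genes are kept silent in embryonic stem cells and are switched on at the primitive streak by Nodal and Wnt signals. Many such developmental genes carry H3K27me3, which Polycomb repressive complex PRC2 places through EZH2 in steps from the unmethylated to the mono-, di- and trimethylated state. H3K36me2 and H3K36me3 mark other chromatin, H3K36me3 mainly the bodies of transcribed genes, and methylated H3K36 is known to hinder PRC2 on the same histone tail. Neither RNA nor protein was measured, so nothing below is an expression level.

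Among the members, Eomes (chr9:118478186-118486132, plus strand) encodes a T-box transcription factor needed for mesoderm migration and definitive endoderm. Mixl1 (chr1:180693043-180697034, minus) and Evx1 (chr6:52313498-52318389, plus) encode homeodomain factors of the primitive streak, and Mesp1 (chr7:79792241-79793590, minus) a basic helix-loop-helix factor of early cardiovascular mesoderm. Gsc (chr12:104471209-104473236, minus) encodes the homeodomain factor of the organizer. Foxa2 (chr2:148042877-148046969, minus) encodes a forkhead pioneer factor of endoderm and axial mesoderm, and Sox17 (chr1:4490928-4497426, minus) an SRY-related factor of endoderm. Cer1 (chr4:82881751-82885151, minus) differs from the rest in that it encodes a secreted protein, which binds and blocks Nodal and other ligands. The strand of Mixl1 and Sox17 was in no table used and was taken as minus from general knowledge, which puts the start at the gene's upper coordinate. Their values at the start depend on this, since untreated H3K27me3 at the other gene end was 0.501 times the genome mean for Mixl1 and 5.66 times for Sox17.

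The RefSeq promoter table of GRCm38.p6 held 6 of the 8 members, all but Mixl1 and Sox17. Foxa2 had 3 entries there, and the most upstream was taken as its start, on which its start level, distances and CG count depend. Sequences are shown for Evx1 and Cer1, which had the highest and the lowest untreated H3K27me3 at the start, and for Gsc and Mesp1, whose starts lay in the longest H3K36me2 peaks of the members. Each run is the 250 bases before the start, read 5′ to 3′ on the gene's own strand, with every CG dinucleotide in capitals. The runs lie at chr6:52313248-52313497 (Evx1, plus strand), chr4:82885152-82885401 (Cer1, minus), chr12:104473237-104473486 (Gsc, minus) and chr7:79793591-79793840 (Mesp1, minus).
Evx1: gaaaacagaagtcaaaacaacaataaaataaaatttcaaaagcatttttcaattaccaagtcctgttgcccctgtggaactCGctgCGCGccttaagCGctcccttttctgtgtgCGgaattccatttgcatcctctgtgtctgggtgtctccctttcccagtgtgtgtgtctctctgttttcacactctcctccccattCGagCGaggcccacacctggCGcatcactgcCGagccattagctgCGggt
Cer1: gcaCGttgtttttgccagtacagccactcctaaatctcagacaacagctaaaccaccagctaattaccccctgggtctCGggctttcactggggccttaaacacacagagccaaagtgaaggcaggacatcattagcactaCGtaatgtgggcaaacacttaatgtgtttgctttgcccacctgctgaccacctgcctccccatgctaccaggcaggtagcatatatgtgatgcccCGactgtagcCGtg
Gsc: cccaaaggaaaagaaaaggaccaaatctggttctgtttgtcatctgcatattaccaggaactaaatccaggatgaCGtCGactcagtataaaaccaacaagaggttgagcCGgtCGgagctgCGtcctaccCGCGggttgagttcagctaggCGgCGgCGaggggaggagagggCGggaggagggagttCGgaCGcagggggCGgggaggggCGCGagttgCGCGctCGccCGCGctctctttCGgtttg
Mesp1: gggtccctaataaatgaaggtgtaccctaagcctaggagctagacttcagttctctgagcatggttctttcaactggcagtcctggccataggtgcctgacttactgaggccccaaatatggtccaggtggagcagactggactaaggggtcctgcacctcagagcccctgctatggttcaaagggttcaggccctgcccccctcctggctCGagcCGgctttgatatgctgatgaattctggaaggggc

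The CG content of the 6 promoters is set beside H3K27me3 at the start, and no relation was tested. Over RefSeq's full window of 300 bases, which adds 50 bases after the start, the number of CG dinucleotides was 25 in Gsc, 12 in Evx1, 12 in Foxa2, 10 in Eomes, 6 in Cer1 and 4 in Mesp1, against a median of 14 over 17273 promoters. Mesp1, with the fewest, had more H3K27me3 at its start than Gsc, with the most, in untreated cells (8.24 and 9.05 against 6.67 and 8.06 times the genome mean). After DMSO the order was reversed, with Gsc at 13.4 and 12.8 times and Mesp1 at 12.03 and 11.5 times. Of 3 motifs searched on both strands, the TCF/LEF core CTTTGA, through which Wnt signals act, was found in Mesp1 alone of the 6 members, with 2 matches, and in 14.9% of all promoters. The T-box letters TCACACC were found in Mesp1 alone as well, just past its start and outside the run shown, and in 3.67% of all promoters. The FOXH1 letters AATCCAC, which serve Nodal signals, were found in none of the 6 members and in 2.33% of all promoters. No match overlapped another.

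In untreated cells, 7 of the 8 members carried several-fold more H3K27me3 at the start than the genome as a whole, and Cer1 stood nearer to the genome mean. A level is given as reads per 1 kb window divided by the mean over all windows of the same library, so that 1 is the genome mean and genes of different length can be compared. At the Evx1 start the 2 libraries read 10.00 and 11.06 times the genome mean. Sox17 read 11.5 and 8.76 times, and Mesp1 8.24 and 9.05 times.

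Foxa2 stood at 7.45 and 9.61 times the genome mean at its start, Mixl1 at 7.33 and 8.95, Eomes at 7.88 and 7.50, and Gsc at 6.67 and 8.06. These 7 levels lay between the 90.9th and the 97.7th percentile of all starts. No neighbours in the order of their means differed beyond their spread, since the replicates of each gene overlapped those of the next down to Gsc. Cer1, the secreted antagonist, read 2.51 and 1.45 times the genome mean, and its mean of 1.98 ± 0.75 (SD, n = 2) lay below Gsc (7.36 ± 0.99) with no overlap.

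The gene body, which includes the windows just inside the start, separated the members further. Evx1 stood highest at 11.57 ± 0.25 times the genome mean (SD, n = 2), followed by Mesp1 at 11.09 ± 0.16, Foxa2 at 10.40 ± 0.04 and Gsc at 10.12 ± 0.34. Sox17 reached 6.65 ± 0.32, Mixl1 4.24 ± 0.50, Eomes 3.37 ± 0.10 and Cer1 1.72 ± 0.19. In this order the replicates of no 2 neighbours overlapped, so Eomes, with a start like those of the others, stood next to last over the body.

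**Figure D1:**
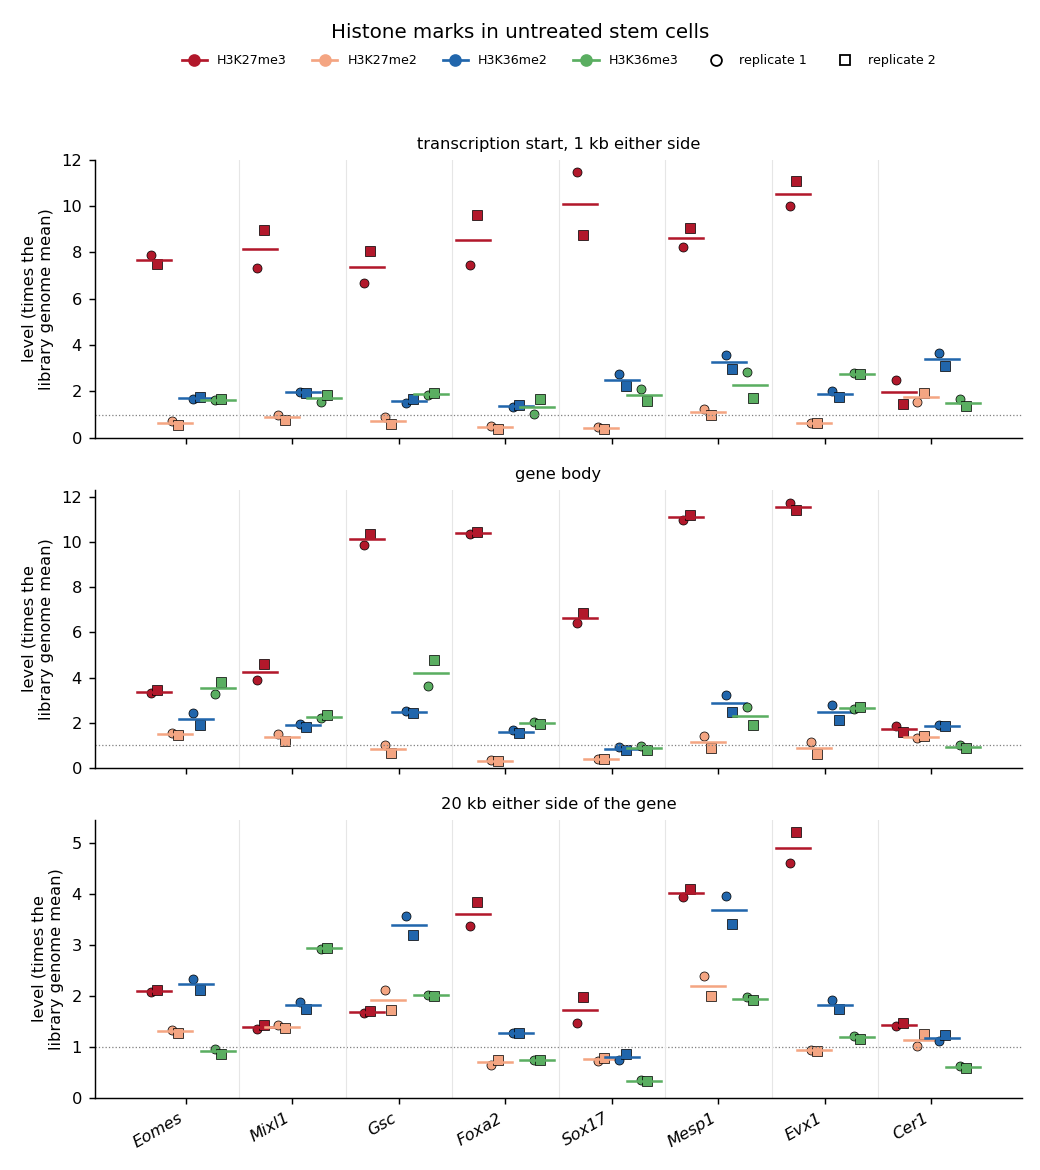
Levels of H3K27me3, H3K27me2, H3K36me2 and H3K36me3 in untreated cells at the 8 genes (horizontal axis), as times the genome mean of each library (vertical axis), at the start, over the gene body and over 20 kb on either side; circles and squares are replicates 1 and 2, bars their mean, and the dotted line is the genome mean. At the start 7 genes sit between 6.67 and 11.5 for H3K27me3 and Cer1 at 2.51 and 1.45, while in the flanks Mesp1 and Gsc stand out for H3K36me2.

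The members differed in where along the gene H3K27me3 was highest. Within 10 kb, the highest H3K27me3 window of Eomes and of Mixl1 lay just upstream of the start, at 9.72 ± 1.01 and 9.21 ± 1.16 times the genome mean. For the other high genes its centre lay inside the gene. It was 2.47 kb downstream in Foxa2 (14.2 ± 0.82), 4.00 kb downstream in Evx1 (16.3 ± 1.28) and 4.93 kb downstream in Sox17 (12.01 ± 0.24). Around Mesp1 a window 17.9 kb upstream, over Mesp2, read 13.2 ± 0.33 times, above any window at Mesp1 itself. Evx1 had 22 of 40 windows within 20 kb of its start at 5 or more times the genome mean, Foxa2 14, Mesp1 10, Eomes 7, Sox17 6, Mixl1 4 and Gsc 4. Cer1 had 0, and its highest window within 10 kb reached only 2.61 ± 0.64. Some windows of the members also lie over long non-coding RNA genes. Gm33408 overlaps the Eomes start, Evx1os overlaps the Evx1 start, and Gm10000 lies upstream of Gsc from 0.294 kb on.

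H3K27me2, the state before trimethylation, differed from H3K27me3 at the starts but not throughout. At the starts of the 7 high genes it ranged from 0.387 (Foxa2 and Sox17, replicate 2) to 1.24 (Mesp1, replicate 1) times the genome mean. At the Cer1 start it stood at 1.53 and 1.95 times, above every library of the other 7. Over the Foxa2 body H3K27me2 read 0.349 and 0.301 times the genome mean, against 10.4 and 10.4 times for H3K27me3. The Mesp1 flanks, in contrast, were rich in both, with 2.19 ± 0.28 times H3K27me2 and 4.03 ± 0.11 times H3K27me3. H3K27me1 at the starts ranged from 0.121 to 1.06 times the genome mean, and its replicates differed widely (1.03 and 0.151 at Eomes).

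**Figure D2:**
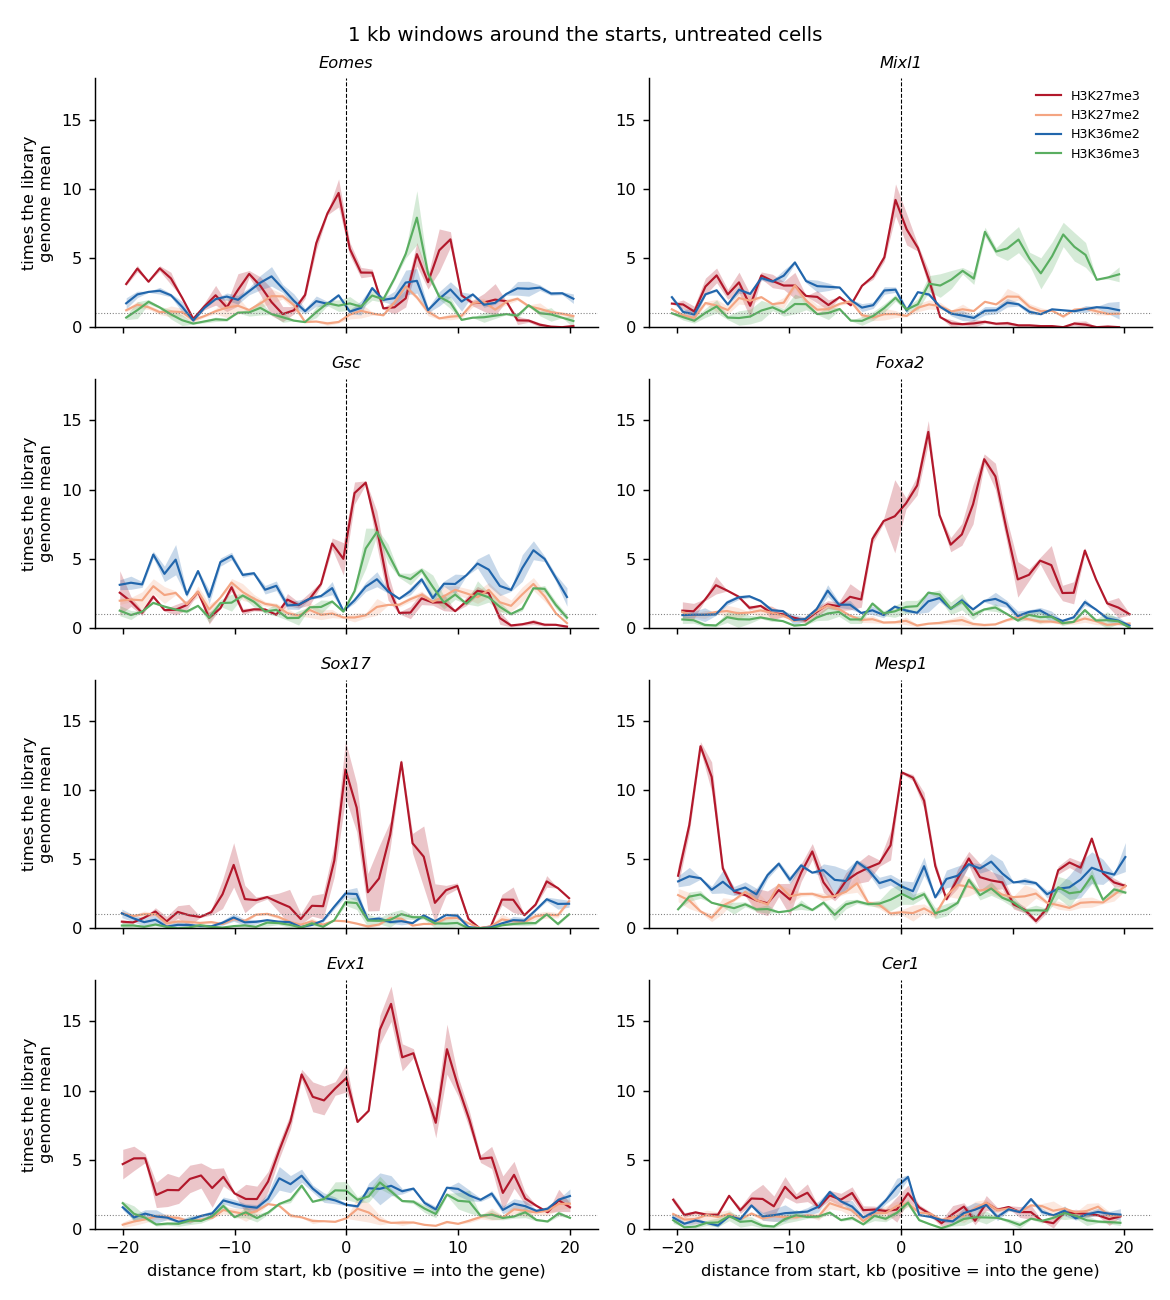
Level of 4 marks in untreated cells in 1 kb windows from 20 kb before to 20 kb after the start of each gene (horizontal axis, distance in kb, positive into the gene), as times the genome mean (vertical axis); lines are the mean of 2 libraries and bands 1 SD. H3K27me3 is high around every start but that of Cer1, reaches 16.3 times 4.00 kb into Evx1 and 13.2 times 17.9 kb before Mesp1, and gives way to H3K36me3 downstream of Mixl1.

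The peaks that the authors called on untreated cells, used here with their own coordinates and scores, covered the start of every member. A start was counted as inside a peak when at least 500 bp of its 2 kb lay in it. All 8 starts lay in an H3K27me3 peak, as did 32.8% of 17275 genes with a start, and each of these peaks scored above the list's median. Cer1 had the lowest-ranked of these peaks, at the 70.9th percentile of scores, and Evx1 the highest, at the 99.5th. Only Mixl1 and Cer1 lay in an H3K27me2 peak (34.0% of genes), and none of the 8 in an H3K27me1 peak (29.5% of genes). All 8 lay in an H3K36me2 peak (53.6% of genes), 5 of them in one above the median score, namely Eomes, Mixl1, Gsc, Mesp1 and Evx1.

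The lengths of these peaks differed between the members. The H3K27me3 peak over Evx1 was 73.5 kb long and reached Hoxa13, the last gene of the neighbouring Hoxa cluster. That over Mesp1 was 46.0 kb long and also held Mesp2, its paralogue, and Anpep. The other 6 were between 13.0 kb (Sox17) and 27.5 kb (Eomes and Mixl1). The H3K36me2 peak over Gsc was 220 kb long and that over Mesp1 63.5 kb, whereas Sox17 lay in one of only 2.5 kb.

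H3K36me2 was high at some of the genes rich in H3K27me3 and not at others. In the 20 kb flanks Mesp1 had 3.98 and 3.42 times the genome mean of H3K36me2, and Gsc 3.57 and 3.21 times, at the 97.9th percentile of all genes or above. Sox17, in contrast, had 0.748 and 0.868 times and Cer1 1.12 and 1.23 times in the flanks. The Sox17 start had more, 2.75 and 2.24 times. At the starts the highest H3K36me2 was that of Cer1 (3.39 ± 0.39) and Mesp1 (3.27 ± 0.40), whose replicates overlapped, and the lowest that of Foxa2 (1.39 ± 0.06). Mesp1 was high for both marks, Foxa2 for H3K27me3 alone.

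Around Mixl1 the marks differed between the upstream and the downstream side. Its H3K27me3 peak ended inside the gene, 2.53 kb downstream of the start, and the gene Lin9 lies on the same side from 6.35 kb on. From 3 to 20 kb downstream H3K27me3 read 0.157 and 0.237 times the genome mean and H3K36me3 4.86 and 4.67 times. Over the 20 kb upstream the same libraries read 2.96 and 3.09 times for H3K27me3 and 0.987 and 1.16 times for H3K36me3. H3K36me2 was also higher upstream (2.60 and 2.56 times) than downstream (1.30 and 1.16 times), as H3K27me3 was, while H3K36me3 was higher downstream.

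H3K36me3 over the body was above the median of all genes, 1.78 times the genome mean, in 6 members, and these also carried H3K27me3. Evx1 had 2.65 ± 0.05 times, Mesp1 2.29 ± 0.56, Mixl1 2.27 ± 0.07 and Foxa2 2.00 ± 0.07. The highest were Gsc and Eomes. Over the Gsc body it read 3.62 and 4.77 times the genome mean, and over the Eomes body 3.25 and 3.79 times, between the 68.6th and the 79.8th percentile of all genes. In Eomes the marks were offset, since from 3 to 8 kb downstream H3K36me3 read 4.24 and 4.82 times and H3K27me3 2.73 and 2.64 times, while the H3K27me3 maximum was upstream. In Gsc both marks were high from 0 to 3 kb downstream, with H3K36me3 at 4.66 and 5.55 times and H3K27me3 at 8.68 and 9.59 times. The stretch from 1 to 5 kb lies mostly past the end of this gene of 2028 bp. There H3K27me3 was lower, at 5.04 and 5.81 times, and H3K36me3 was not, at 5.06 and 5.86 times. The marks thus overlapped in Gsc but differed in extent, and the like averages from 1 to 5 kb do not show equal levels in each window. The Sox17 and Cer1 bodies held 0.978 and 0.804, and 1.01 and 0.880 times the genome mean of H3K36me3. Both marks being in the same cells or in different cells of the culture cannot be told apart in such bulk data, nor can fewer marked cells from less mark per cell in the comparisons below.

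As a check of the labelled cell type, 7 genes of the stem cell state (Pou5f1, Nanog, Sox2, Esrrb, Klf4, Zfp42 and Tfcp2l1) had a median H3K36me3 over the body of 6.70 times the genome mean, against 2.28 for the 8 members and 1.78 for all genes. Of these 7, only Esrrb had its start in an H3K27me3 peak. Other genes of gastrulation resembled the members, since 9 of 10 with a start lay in an H3K27me3 peak, with a median of 8.72 times the genome mean beside 8.34 for the members and 0.470 for all genes. In that list Wnt3, a streak ligand, was highest (15.3 ± 0.14) and Tbx6, a T-box gene of presomitic mesoderm, lowest (0.763 ± 0.25). Of Nodal and Wnt pathway genes, 3 of 9 lay in a peak. The highest of the 9 was Lef1, in a peak, at 5.80 ± 0.28. The lowest was the Nodal co-receptor gene Tdgf1, in no peak, at 0.0430 ± 0.0054. All 4 GATA factor genes with a start lay in a peak, from Gata5 (16.2 ± 0.32) to Gata1 (2.02 ± 0.74), and so did all 5 ectoderm regulators, from Olig2 (15.8 ± 1.49) to Sox1 (4.32 ± 1.18). Of 6 naive pluripotency genes only Esrrb did (6.23 ± 0.0017), and Zfp42 was lowest (0.0392 ± 0.055).

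The genes most like the 8 members were sought among 17275 genes. The measure was the root mean square difference of log2 levels at the start from the members' median. It was taken over the 16 libraries other than H3K27me3 after the inhibitor. The nearest 5 were Gata2 (0.194), Prr18 (0.207), Cilp2 (0.216), Npy5r (0.220) and Dscam (0.225), against a median of 2.28 for all genes. Of the members themselves 6 lay farther from their median than these 5 genes, from Eomes at 0.25 to Cer1 at 1.28. The 5 genes thus resemble the members' median and not each member.

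Treatment with EPZ-6438 lowered H3K27me3 at all 8 members by more than 2 orders of magnitude, and most genes fell by amounts that varied. Values here are reads multiplied by the factor in each deposited track, which is assumed here to hold their spike-in correction. On this scale the Evx1 start held 523 and 470 scaled reads per window after DMSO and 0.968 and 1.44 after the inhibitor. The Mesp1 start held 585 and 411 after DMSO and 0.484 and 0.148 after the inhibitor. The Cer1 start, already low, held 190 and 79.2 after DMSO and 0.121 and 0.148 after the inhibitor. The arms did not overlap at any member.

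The ratio of the DMSO mean to the inhibitor mean at the start was 355 for Eomes, 392 for Foxa2, 413 for Evx1, 804 for Sox17, 1233 for Gsc, 1305 for Mixl1, 1576 for Mesp1 and 999.5 for Cer1. The genome mean itself went from 42.2 ± 9.17 to 0.0790 ± 0.0172 (SD, n = 2), a 534-fold fall. The means of 3 members fell less than that and those of 5 more, but library by library Foxa2, Evx1 and Cer1 were not separated from the fall of the genome. These ratios rest on few reads, from 1 and 3 at Cer1 to 9 and 30 at Foxa2 in the 2 inhibitor libraries.

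In the limma fit of log2(scaled reads per window + 1) over 14135 genes with reads at the start, all 8 members fell, and so did 99.2% of the genes tested. The log2 changes ran from -6.77 ± 0.46 (SE, Cer1) to -8.57 ± 0.33 (Gsc), with a largest Benjamini-Hochberg adjusted p of 1.04e-05 in limma. The added 1 limits these values, since the inhibitor levels of all members lay at 1.49 or below. The members' median was -8.11, against -5.33 for all genes tested, a gap that depends on the added 1, since with 0.1 added the medians were -9.34 and -7.74 and with limma-voom -9.64 and -8.40. In the flanks all 8 fell too, from -5.57 ± 0.24 (Cer1) to -7.45 ± 0.24 (Mesp1), as did 100% of genes after rounding (21289 of 21291). An exact permutation test of a single gene cannot go below 0.33 with 2 libraries an arm, and it gave that smallest value at each member.

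**Figure D3:**
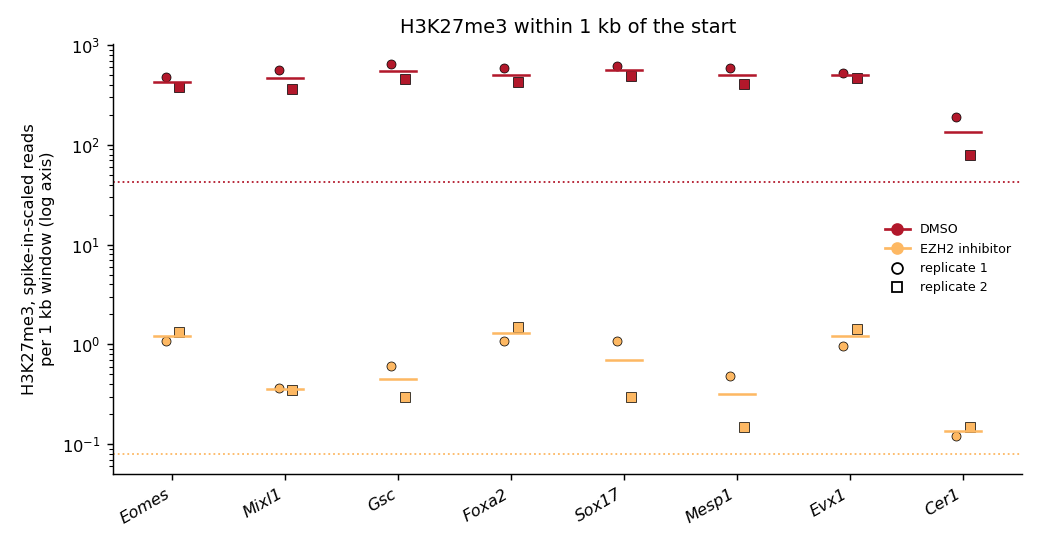
H3K27me3 within 1 kb of the start of each gene after DMSO (red) and after the EZH2 inhibitor (orange), in spike-in-scaled reads per 1 kb window on a log axis; circles and squares are replicates 1 and 2, bars their mean, and dotted lines the genome means of 42.2 and 0.0790. All DMSO libraries lie at 79.2 or above and all inhibitor libraries at 1.49 or below, both above the genome mean of their arm.

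The few H3K27me3 reads left could be compared between members within each library, by dividing again by the library's own genome mean. This scale does not depend on the spike-in, but the 2 inhibitor libraries held only an estimated 0.749 and 1.34 M reads, against 16.3 and 21.1 M after DMSO. None of the 18 libraries was an input control. Remaining H3K27me3 and background reads therefore cannot be told apart here, in this and the following comparisons on the relative scale. At the start, Eomes had 9.89 and 10.6 times the genome mean after DMSO and 11.9 and 20.0 times after the inhibitor. Mesp1 had 12.03 and 11.5 times after DMSO and 5.31 and 2.22 times after the inhibitor. Both inhibitor libraries lay below both DMSO libraries at 4 members (Mixl1, Gsc, Sox17 and Mesp1), as they did at 29.7% of genes, and above them at Eomes, as at 34.2% of genes.

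None of these differences at the start passed the test. The relative fit called 0 of 14135 genes, 0% of those tested, although 4699 had an unadjusted p under 0.05, and the members' smallest adjusted p in limma was 0.138 (Mixl1, log2 change -1.24). Pooling the reads of both inhibitor libraries, Foxa2 stood at 18.5 times the genome mean (95% exact Poisson interval 13.2 to 25.4), Evx1 at 17.6 (12.4 to 24.3) and Eomes at 17.1 (11.99 to 23.7). Mesp1 stood at 3.33 (1.34 to 6.86), Mixl1 at 4.76 (2.28 to 8.75) and Gsc at 5.23 (2.61 to 9.36). These intervals cover counting error only, and reads without molecular identifiers are not independent molecules. A read also counts in each window it touches, an estimated 1.32 on average, so adjacent windows share reads and the intervals are too narrow.

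Foxa2 kept the most over its body. Its 4 windows read 15.96 and 13.95 times the genome mean after DMSO and 26.6 and 43.0 times after the inhibitor, from 40 and 116 reads. On the spike-in scale the same windows went from 777 and 498 to 2.42 and 2.87 scaled reads, a 241-fold fall against 534-fold for the genome. Mesp1 marked the other end, with 15.8 and 15.5 times after DMSO and 1.33 and 5.19 times after the inhibitor, from 1 and 7 reads, and a 2828-fold fall on the spike-in scale.

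In the relative fit over gene bodies, added after Foxa2 had been seen to stand apart there, Gsc (-1.48 ± 0.20 on the log2 scale, adjusted p 0.0122 in limma), Cer1 (-1.02 ± 0.22, 0.0298) and Mixl1 (-0.81 ± 0.21, 0.0450) fell. These calls rest on few inhibitor reads, 4 and 9 for Gsc, 4 and 9 for Mixl1, and 1 and 2 for Cer1. The pooled Cer1 level of 0.951 times the genome mean had a 95% exact Poisson interval of 0.196 to 2.78, which holds both of its DMSO levels (2.28 and 1.76). They are 3 of 8 members, beside 9.37% of 19841 genes, and the median change of all genes on this scale was 0.36. Foxa2 rose by 1.17 ± 0.31 with an adjusted p of 0.0497 in limma, beside 35.4% of genes. The other 4 did not pass, with values of -2.52 for Mesp1, -0.92 for Eomes, -0.90 for Sox17 and -0.31 for Evx1. Both inhibitor libraries lay below both DMSO libraries in 6 of 8 bodies (29.1% of genes) and above them in Foxa2 (49.9% of genes). Leaving out either DMSO library ended all of these calls, and left 0 calls among all genes, whereas all 4 passed without either inhibitor library. The latter fits take their spread from the 2 DMSO libraries alone and called 13784 and 13943 genes, so they are no sign of stability. The Foxa2 call was also lost with windows that start 500 bp later (1.07, adjusted p 0.0660) and so were those of Gsc (adjusted p 0.0625) and Cer1 (0.0777) in limma. In those windows 2 of 8 members were called lower, beside 1917 of 19886 genes. With reads required in all 4 libraries 5 members were called lower and 1 higher, beside 1888 and 7724 of 18200 genes.

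Compared with genes as rich in H3K27me3, Foxa2 was not alone. Of 314 genes with 10 or more times the genome mean over the body in untreated cells, 93 rose and 30 fell in this fit, and Foxa2 lay at the 71.7th percentile of their changes. Of 1633 genes with 5 or more times, 123 rose and 532 fell, and it lay at the 93.5th percentile. The 5 members in the wider group were Gsc, Foxa2, Sox17, Mesp1 and Evx1.

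The highest window within 10 kb after the inhibitor was picked out for each member, so its value is a description. In Foxa2 it was 2.47 kb downstream, at 55.8 ± 11.3 times the genome mean after the inhibitor (18 and 43 reads) against 18.8 ± 2.64 after DMSO. This was also the highest window of the gene in untreated cells. In Eomes it was 1.69 kb upstream, at 32.4 ± 4.50 times (11 and 24 reads) against 10.0 ± 0.37. From 4 to 10 kb downstream, where Foxa2 had 11.2 and 11.3 times after DMSO, it had 11.5 and 10.4 times after the inhibitor, and the libraries of the arms lay close together there. Part of that stretch, from 6.46 kb on, lies over the long non-coding RNA gene 9030622O22Rik. The Evx1 maximum lay 4.00 kb downstream and its replicates were far apart (22.4 ± 16.6, 4 and 23 reads). In Gsc and Sox17 even the highest window lay below DMSO, at 6.36 ± 1.48 against 16.9 ± 1.98 times and 9.17 ± 1.70 against 20.2 ± 2.22 times. The other 3 read 7.69 ± 0.39 against 6.18 ± 0.06 times in Mixl1, 6.05 ± 6.46 against 4.64 ± 1.04 in Mesp1 and 4.14 ± 1.66 against 2.27 ± 0.94 in Cer1.

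**Figure D4:**
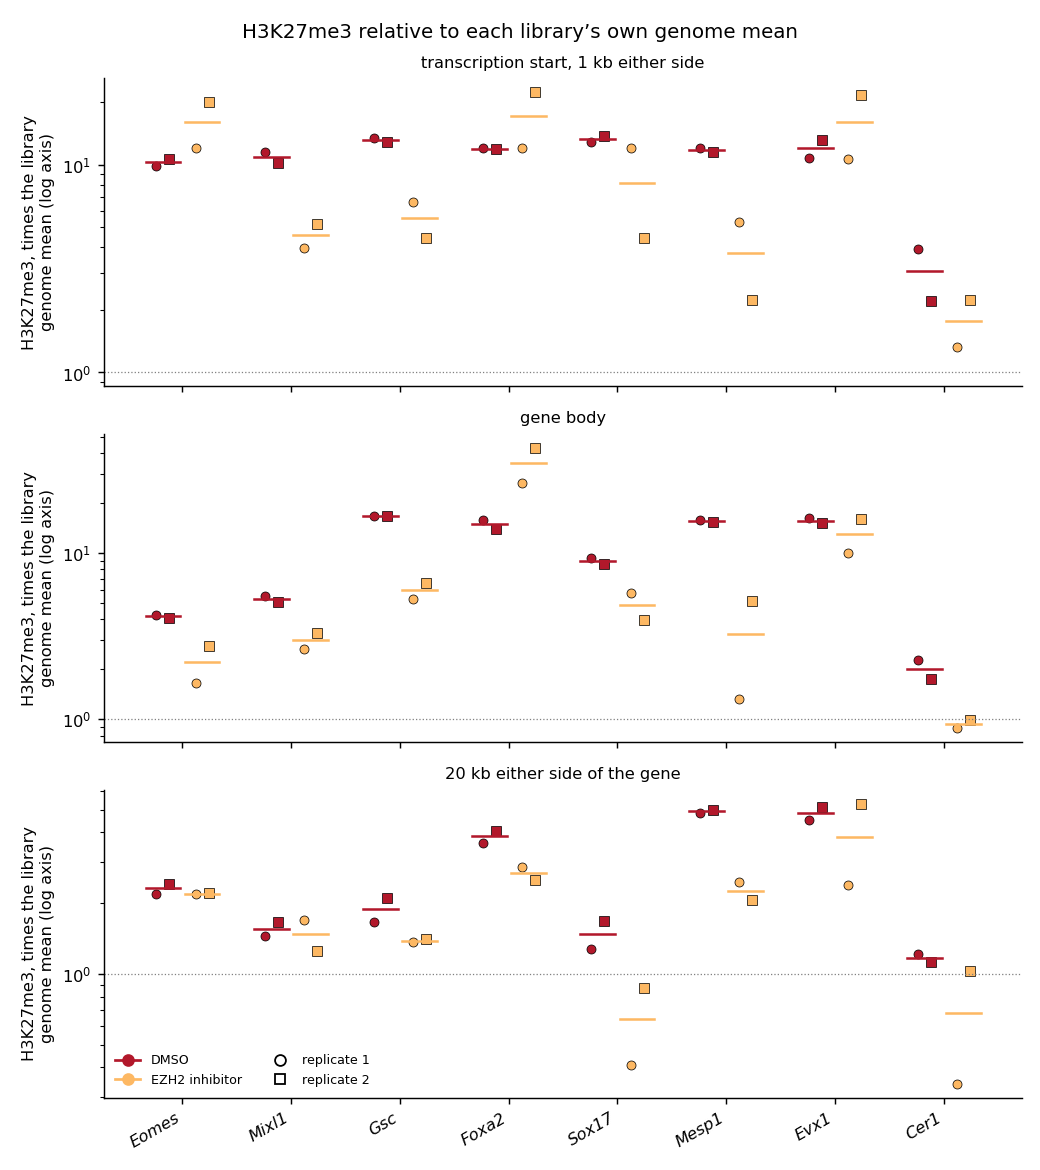
H3K27me3 as times the genome mean of each library (log axis) after DMSO (red) and the EZH2 inhibitor (orange) at the start, over the gene body and over the flanks of the 8 genes; circles and squares are replicates 1 and 2 and bars their mean. The Foxa2 body is the only body with both inhibitor libraries above DMSO, at 26.6 and 43.0 times, and the Mesp1 body drops furthest, to 1.33 and 5.19 times.

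In the flanks the relative level of H3K27me3 fell at the mesoderm gene Mesp1. It read 4.82 and 5.00 times the genome mean after DMSO and 2.45 and 2.05 times after the inhibitor, a log2 change of -1.10 ± 0.19 (adjusted p 0.0114 in limma). It was the only member called, beside 8.5% of 21291 genes called lower, and the median change of all genes was 0.16. Sox17 had 1.28 and 1.68 times after DMSO and 0.409 and 0.874 times after the inhibitor (-1.16 ± 0.35, adjusted p 0.0541 in limma). Both inhibitor libraries lay below both DMSO libraries at 5 of 8 members (Gsc, Foxa2, Sox17, Mesp1 and Cer1), as at 28.2% of genes. Without DMSO replicate 1 or replicate 2 the adjusted p of Mesp1 in limma was 0.158 or 0.166, and 901 or 0 genes were called in all. The upstream flank of Mesp1 contains Mesp2, which lies 17.1 to 19.8 kb before the Mesp1 start, so the paralogues share this measurement.

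No member passed the test for H3K36me2 on the spike-in scale when replicates were not paired. At the Mesp1 start it went from 974.8 and 634 scaled reads per window after DMSO to 938 and 556 after the inhibitor, and at the Cer1 start from 914 and 550 to 999.9 and 637. Replicate 1 was the higher one throughout, and the arms overlapped at all 8 members. The log2 changes at the start ran from -0.30 (Foxa2) to 0.17 (Cer1), each with an SE of 0.58, and 0 of 8 passed in limma, beside 72 of 16709 genes (0.431%). In the flanks they ran from -0.05 (Eomes) to 0.56 (Sox17) with an SE of 0.51, and limma called 0% of 21368 genes, with 123 at an unadjusted p under 0.05. The limma-voom fit also called 0, with 100 at an unadjusted p under 0.05. With replicate number as a block, limma called 4098 genes in the flanks, 4056 of them higher, Sox17 among them.

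Relative to the library mean, which took away the difference in genome mean between replicates, small shifts were seen. Replicates still differed at some genes, as at the Gsc start after the inhibitor (1.27 and 1.88 times). This change of scale lowered the median log2 change of all genes at the start from 0.03 to -0.15, and that in the flanks from 0.08 to -0.11. In the flanks Gsc went from 2.86 and 2.91 times the genome mean to 2.40 and 2.47 times, and Eomes from 2.14 and 2.08 to 1.76 and 1.79 times. Mesp1 went from 3.52 and 3.44 to 3.05 and 3.16 times. Sox17, whose flanks were the poorest in H3K36me2, went from 0.689 and 0.637 up to 0.891 and 0.809 times.

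Both inhibitor libraries lay below both DMSO libraries at 4 members in the flanks (Eomes, Gsc, Mesp1 and Evx1), as at 46.1% of genes, and above them at Sox17, as at 19.9% of genes. At the starts they lay below at 4 members (Eomes, Mixl1, Foxa2 and Mesp1), as at 38.5% of genes. No gene was called in the flanks on this scale by limma without pairing of replicates (0% of 21368), although 7267 had an unadjusted p under 0.05. With replicate number as a block, 12774 were called, 9168 lower and 3606 higher, among them 4 members lower and 1 higher. The calls thus depend on a pairing that the labels do not give. The member values were -0.24 for Eomes and Gsc and 0.32 for Sox17 on the log2 scale, and -0.16 for Mesp1 and Evx1, which had 0.04 and 0.03 on the spike-in scale, a difference of about the size by which the scale moved all genes.

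**Figure D5:**
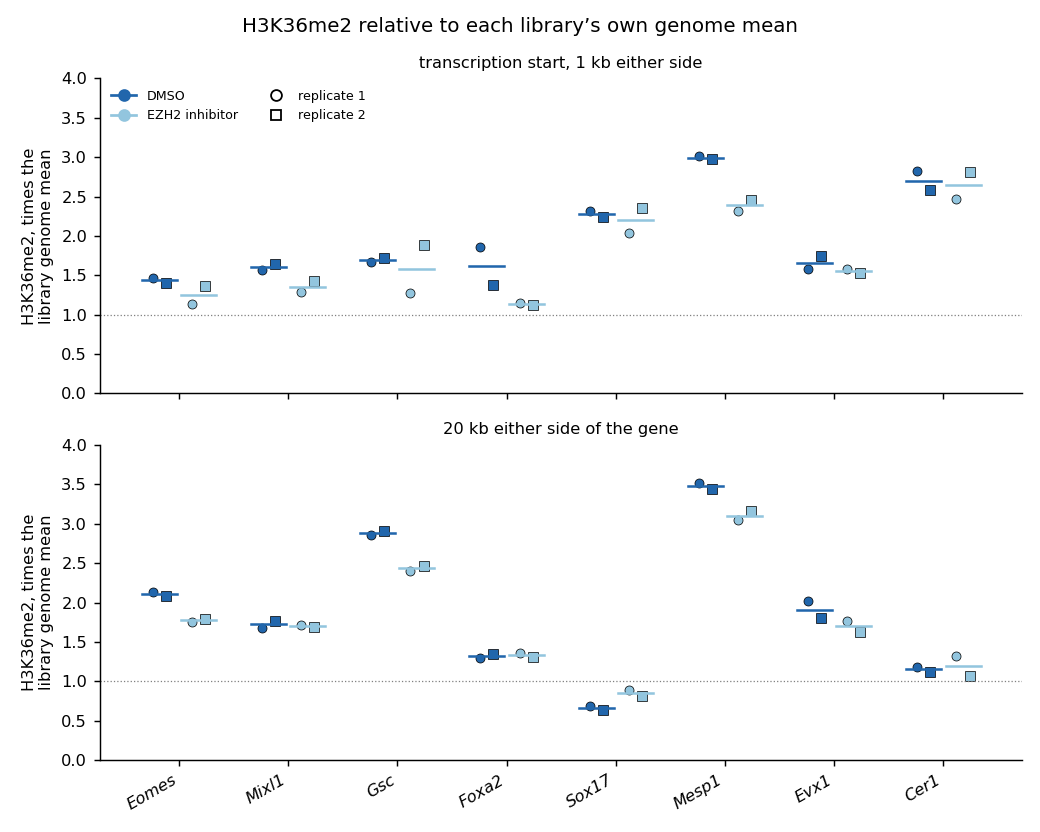
H3K36me2 as times the genome mean of each library (vertical axis, linear) after DMSO (dark blue) and the EZH2 inhibitor (light blue), at the start and over the flanks of the 8 genes; circles and squares are replicates 1 and 2 and bars their mean. In the flanks Mesp1 and Gsc are highest in both arms and slightly lower after the inhibitor, and Sox17 is lowest in both arms and higher after it.

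The relative changes of H3K27me3 can be set beside H3K36me2 at the same genes. Mesp1 and Gsc had 3.48 ± 0.057 and 2.88 ± 0.032 times the genome mean of H3K36me2 in the flanks after DMSO, and over their bodies their relative H3K27me3 had log2 changes of -2.52 and -1.48. Eomes and Evx1 had 2.11 ± 0.041 and 1.91 ± 0.15 times, and changes of -0.92 and -0.31. Mixl1 and Foxa2 had 1.72 ± 0.064 and 1.32 ± 0.032 times, and changes of -0.81 and 1.17. Cer1 and Sox17, with the least H3K36me2 in the flanks (1.15 ± 0.044 and 0.663 ± 0.036 times), had changes of -1.02 and -0.90. Flank H3K36me2 and body changes thus did not follow one order. At their starts Cer1 and Sox17 had 2.70 ± 0.17 and 2.28 ± 0.05 times after DMSO, so the order of H3K36me2 depends on the region. With 8 genes chosen by name no relation was tested.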

How the data were processed

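Read density was measured by ChIP-seq in 18 libraries of mouse embryonic stem cells, 2 in each of 9 groups. The authors deposited log2 values in 1 kb windows every 500 bp. The values are log2(1 + reads times a factor), and dividing by the smallest step gave whole reads for 100% of values within a tolerance of 0.02 of a read. In the 8 quantitative libraries that factor was assumed to carry the spike-in correction, which the sources used here do not state. The submitters' processing notes name Trim Galore 0.4.2, Bowtie2 2.2.6.2, SICER and the builds mm10 and dm3, without their settings. Read extension and duplicate handling are not given in the sources used here, and both would change the reads per window. The authors also deposited peak lists with a score per peak, tied to the untreated libraries of 4 marks pooled over replicates, and these scores served here to order the peaks of one mark.

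Non-overlapping windows of the autosomes and chromosome X were averaged over each region, with the gene table of RefSeq (GRCm38). Body windows overlap those of the start, and flanks lie outside the gene. Reads given for a region are summed over its windows, so a read across a window boundary counts in both windows. Libraries held an estimated 0.749 to 84.4 M reads, the 2 lowest being H3K27me3 after the inhibitor. Inhibitor and DMSO libraries were compared with limma 3.58.1 (R 4.3.3), an empirical Bayes linear model fitted over all genes with at least 10 window reads in the 4 libraries. It used log2 of scaled reads plus 1, or of the level relative to the library mean plus 0.1, with Benjamini-Hochberg adjusted p under 0.05 as the call. The limma spread is pooled over genes, and all genes of a library share its factor, so small p-values on the spike-in scale rest on 2 libraries an arm. Python 3.11.15 with NumPy 2.4.6, pandas 2.3.3, SciPy 1.17.1 and Matplotlib 3.10.9 did the rest, and the scripts were tested on simulated data. All 8 genes are named, and of each other gene list the highest and the lowest for untreated H3K27me3 at the start. The genes and lists were chosen with earlier results of these data known. Alternatives covered the scale, pseudocount, filter, window phase, region, tool, replicate number and each library left out.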

Additional observations from a re-analysis of the deposited data

How the results depend on the processing

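On the spike-in scale the fall of H3K27me3 kept its direction and its call at all 8 members, at the start and in the flanks, with another pseudocount, filter, tool or window phase, over the gene body, with a replicate block and without any 1 library. As reported, the spike-in scale gave calls in the lower direction only, 14023 at the start, 19814 over the body and 21289 in the flanks, though at the start 1 gene was called higher with a pseudocount of 0.1, 6 without DMSO replicate 1 and 13 without DMSO replicate 2. Relative to the library mean 0 genes were called at the start, 8891 over the body (1860 lower and 7031 higher) and 7153 in the flanks (1810 lower and 5343 higher). On that scale the values at the start turned positive for Eomes (0.59), Foxa2 (0.45, and 1.17 over the body) and Evx1 (0.34). With windows starting 500 bp later the relative flank value of Eomes was 0.22. Leaving out 1 library at a time moved the relative calls between 0 and 14323 in the flanks and between 0 and 13943 over the body, where no gene was called without DMSO replicate 1 or without DMSO replicate 2. It moved the relative flank values of Mixl1 between -0.29 and 0.12 and of Evx1 between -0.99 and 0.13, the relative body value of Evx1 between -0.64 and 0.023, and the members' median relative change of H3K27me3 in the flanks between -0.70 and -0.34.

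For H3K36me2 the 72 genes called at the start became 0 on the relative scale, with no filter, with limma-voom and over the body on the relative scale, 13 with reads required in all 4 libraries, and between 18 and 112 with 1 library left out. In the flanks 1 gene was called with a pseudocount of 0.1. Relative values at the start were -0.12 for Gsc (-0.053 over the body), -0.051 for Sox17, -0.091 for Evx1 (-0.17 over the body) and -0.033 for Cer1. Mixl1 read 0.022 at the start with the shifted windows and 0.16 over the body. Relative flank values were -0.015 for Mixl1, -0.16 for Mesp1 and -0.16 for Evx1. On the spike-in scale with flanks of 10 kb Mesp1 read -0.0027 and Evx1 -0.030. With 1 library left out, values at the start ranged from -0.34 to 0.32 (Eomes), -0.38 to 0.30 (Mixl1), -0.21 to 0.35 (Gsc), -0.81 to 0.22 (Foxa2), -0.17 to 0.47 (Sox17), -0.50 to 0.25 (Mesp1), -0.33 to 0.55 (Evx1) and -0.20 to 0.54 (Cer1). In the flanks they ranged from -0.45 to 0.36 (Eomes), -0.24 to 0.61 (Mixl1), -0.44 to 0.36 (Gsc), -0.23 to 0.66 (Foxa2), -0.35 to 0.43 (Mesp1), -0.45 to 0.51 (Evx1) and -0.31 to 0.82 (Cer1). The members' median relative H3K36me2 change in the flanks was -0.15 when levels were set to the library median over windows with reads, and on that scale the members' median untreated H3K27me3, taken in each library and averaged over both, was 13.7 in place of 8.26. The cause of these shifts was not tested.

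Replicate numbers are shared between arms, but the labels give nothing else that pairs them, and same-numbered libraries deviated together with correlations of 0.0269 and 0.134 for H3K27me3 and 0.155 and 0.627 for H3K36me2, at the start and in the flanks. With the replicate block 6 genes were called for H3K36me2 at the start and 4098 of 21368 in the flanks. Of these 4098, 4056 were higher, Sox17 (0.56) among them. With the block on the relative scale 212 and 12774 were called. In the flanks these were 9168 lower and 3606 higher of 21368 genes. They included lower values at Eomes, Gsc, Mesp1 and Evx1 and a higher one at Sox17. For H3K27me3 the block on the relative scale gave 0 calls at the start and 7402 in the flanks. Over the body on that scale the block left 6723 calls and Gsc alone of the members. Taking the other gene end as the start, since the strand was in no table used, gave untreated H3K27me3 of 0.501 for Mixl1 and 5.66 for Sox17.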

Other observations

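Other gene lists took different places in the comparison of relative H3K27me3 over gene bodies, where 1860 of 19841 genes were called lower and 7031 higher by limma after the inhibitor. Of 14 other gastrulation genes, 4 fell and 3 rose, with a median log2 change of -0.48, against -0.91 for the 8 members and 0.36 for all genes. Of 14 genes of the Nodal and Wnt pathways, 7 rose and 0 fell, with a median of 1.33. Tdgf1 had a change of 2.67, from 0.08 times the genome mean over its body in untreated cells, which is below the 0.1 added before log2. Lef1, with 3.83 times, had one of -0.46. Of 8 naive pluripotency genes 6 rose and 0 fell, with a median of 2.61. Zfp42 had a change of 4.14, from 0.0516 times over its body in untreated cells, again below the 0.1 added. Esrrb, with 2.37 times, had one of 0.06. Rises from such low levels depend on the 0.1 added, so these medians are no like contrast to that of the members. The 6 GATA factor genes gave 1 call in each direction (median -0.17), and of 6 ectoderm regulators 1 rose (median 0.43). These values are shares of what each library had left, so a higher value does not mean more H3K27me3 than after DMSO. As stated above, calls over the bodies did not hold when either DMSO library was left out.

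An H3K27me1 peak of 56.5 kb began 4.03 kb downstream of the Mixl1 start and covered Lin9, a cell cycle regulator gene. The Mixl1 flanks had 2.05 and 1.60 times the genome mean of H3K27me1, above both libraries of each of the other 7 members. This gene thus lay between H3K27me3 on its upstream side and H3K27me1 with H3K36me3 on its downstream side.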
